A study of Mus musculus with 11 samples.

Results

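The 3 genes described here, *Ins1*, *Ins2* and *Iapp*, were chosen by name as the insulin and amylin genes and not by a threshold on any value, although earlier results of these data were known. They are 3 of the 34728 genes of the table and 3 of the 11251 genes that were tested. RNA of β-cells was measured in 11 libraries from 8-week-old male mice on a mixed C57BL/6 x 129SV background. WT mice (n = 3) were Raptor+/+ and carried RIP-Cre, a Cre transgene driven by the promoter of a rat insulin gene, with a GFP reporter at the Rosa26 locus. Diabetic βRapKOGFP mice (n = 4) carried the same Cre and reporter with both floxed Raptor alleles deleted, and they received no insulin. Euglycemic βRapKOGFP mice (n = 4) had the genotype of the diabetic mice and carried an insulin pellet for the last 4 weeks, as the labels put it, whereas the methods describe implanted pumps. Raptor is the subunit that defines mTOR complex 1 (mTORC1), a kinase complex that controls protein synthesis and growth. GFP marks every cell in which the Cre was active at some time, so the sort was aimed at descendants of insulin-expressing cells, whether or not they still make insulin. The methods describe the sorted cells as not fully pure. Neither the labels nor the methods say whether each library came from 1 mouse, so p-values measure the spread between libraries.

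Insulin is made as preproinsulin, which is cut to proinsulin in the endoplasmic reticulum and to insulin and C-peptide in the secretory granule. Mice have 2 insulin genes. *Ins2* is the counterpart of the single human gene, and *Ins1* arose as a copy of it made from RNA. *Iapp* encodes the precursor of amylin (islet amyloid polypeptide), a hormone that is processed by the same convertases, stored in the same granules and released together with insulin. *Pdx1*, *Mafa* and *Neurod1* are among the factors that bind the promoters of these genes in β-cells.

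The table gives a value in FPKM, which is mapped fragments scaled to transcript length and library size, so levels are scaled to the length of each gene model. *Ins1* (ENSMUSG00000035804) lies on the plus strand of chromosome 19 of GRCm38 (mm10) from 52264297 to 52265476. It has 1 transcript of 1062 bases in 2 exons in the GENCODE annotation, which runs 461 bases past the end of the RefSeq gene at 52265015. Without those bases the transcript would have 601 bases, and the same reads would give an FPKM 1.77 times as high in every library. The level of *Ins1* relative to the other genes therefore depends on the gene model, whereas its comparison between groups does not. *Ins2* (ENSMUSG00000000215) lies on the minus strand of chromosome 7 from 142678656 to 142743381. Its 9 transcripts are 259 to 918 bases long, and the first of them has 478 bases. Their exons together cover 1312 bases, and the RefSeq gene ends at 142679726. The level of *Ins2* relative to the other genes thus depends on the gene model as well. *Iapp* (ENSMUSG00000041681) lies on the plus strand of chromosome 6 from 142298423 to 142303961, with 2 transcripts of up to 839 bases. It lies within the span of *Slco1a5* on the opposite strand, and the exons of these genes share 0 bases.

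The 2 insulin genes are close copies, which matters for counting. Their coding sequences, of 327 bases in *Ins1* and 333 in *Ins2* with the stop codon, are identical at 92.4% of the aligned bases. Among windows without a gap in the alignment, the start of the coding sequence is the 60-base window where they differ most. It is shown with the 10 differing bases in capitals. In GRCm38 it spans chr19:52264624-52264683 (plus strand, exon of *Ins1*) and chr7:142679474-142679533 (minus strand, exon of *Ins2*).
Ins1 coding: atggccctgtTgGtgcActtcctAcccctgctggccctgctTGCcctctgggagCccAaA
Ins2 coding: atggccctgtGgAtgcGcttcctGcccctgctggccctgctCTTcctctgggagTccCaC
The longest identical run, of 56 bases, lies at the other end of the coding sequence, at chr19:52264894-52264949 and chr7:142678714-142678769. It is shown because a read that lies wholly within it cannot by itself be assigned to 1 of the genes.
shared coding: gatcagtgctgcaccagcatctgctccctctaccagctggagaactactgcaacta
Of all stretches of 50 bases, 7 of 1013 in the *Ins1* transcript (0.691%) and 7 of 429 in the first *Ins2* transcript (1.63%) also occur in the other gene, and 0 of 790 in the first *Iapp* transcript occur in any other gene. Stretches of this length that occur in both insulin genes are thus few. How many reads fit both genes was not measured, and how they were divided is not stated.

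The promoters of *Ins1* and *Iapp* are shown because both genes share regulators that were measured in the same libraries. The windows are those of RefSeq on GRCm38.p6, from 250 bases before to 50 bases after the annotated start, at chr19:52264047-52264346 (plus strand) and chr6:142298175-142298474 (plus strand). The table of promoters used here matched these 2 of the 3 genes. Capitals mark TAAT (core letters of homeodomain sites such as those of *Pdx1*), CATCTG (an E-box of the kind bound by *Neurod1* with *Tcf3*) and TGCTCAGC (letters of a Maf recognition element), each searched on both strands.
Ins1 promoter: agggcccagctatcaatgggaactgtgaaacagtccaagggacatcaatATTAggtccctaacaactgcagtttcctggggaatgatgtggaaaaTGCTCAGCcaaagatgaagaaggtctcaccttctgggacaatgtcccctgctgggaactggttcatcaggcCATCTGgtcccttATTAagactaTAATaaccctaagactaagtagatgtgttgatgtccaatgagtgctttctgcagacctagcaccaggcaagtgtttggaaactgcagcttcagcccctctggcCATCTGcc
Iapp promoter: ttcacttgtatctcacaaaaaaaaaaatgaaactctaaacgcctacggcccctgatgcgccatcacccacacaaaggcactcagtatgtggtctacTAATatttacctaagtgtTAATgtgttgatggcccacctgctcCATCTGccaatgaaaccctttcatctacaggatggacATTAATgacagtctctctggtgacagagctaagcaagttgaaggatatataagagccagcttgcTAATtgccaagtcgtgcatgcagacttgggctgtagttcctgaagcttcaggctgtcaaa
*Ins1* had 3 TAAT, 2 CATCTG and 1 TGCTCAGC. *Iapp* had 5 TAAT, 2 of which overlap on opposite strands, and 1 CATCTG. Of 32851 RefSeq promoters of this length, 58.0% hold TAAT, 17.2% CATCTG and 2.26% TGCTCAGC, so the first of these is found in most promoters. A match is a run of letters and was not tested for binding.

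The depth of the libraries is not part of the table and was inferred from the steps between low values. It was 9498900 to 16645700 fragments per library, with 92.7 to 97.1% of low values in single-exon genes within 0.02 of a whole fragment number. At that depth between 285003 and 665061 fragments lie behind the *Iapp* value of a library, so counting error is small beside the spread between libraries. The summed FPKM was between 360953 and 428978. *Rptor*, which encodes Raptor, ranged from 0.948 to 1.79 FPKM across WT, from 0.485 to 0.937 across diabetic and from 0.423 to 0.623 across euglycemic libraries. Diabetic replicate 1 (0.937) was thus at the level of WT replicate 1 (0.948), and the other mutant libraries were lower. All 9 β-cell markers checked were detected, and the insulin and amylin genes held the first 3 ranks among all genes in every library. Markers of other cell types were detected to different degrees. The summed FPKM of 7 α-cell markers ran from 1307 to 2677 among WT, from 4437 to 15181 among diabetic and from 5473 to 24262 among euglycemic libraries. Most of it was *Gcg* in every library but WT replicate 1, where *Gcg* was 867 of 1793 FPKM. The α-cell marker *Slc7a2* had means of 5.61, 3.84 and 2.87 FPKM in that order, and *Irx1* stayed below 1 FPKM in every library. That of 9 acinar markers ran from 1.76 to 34.2, 2.65 to 2066 and 2.01 to 3783 in the same order, highest in euglycemic replicate 4. Endothelial markers (6 genes) summed to 0.388 to 2.02, 7.0 to 46.7 and 0.767 to 2.65 in the same order of groups. Most of the diabetic sum was *Plvap*, at 6.14 to 39.9 FPKM, which rose by 3.29 against WT (limma adjusted p = 0.0177). The other endothelial markers were too low to be tested. Immune markers (6 genes) summed to 42.6 to 56.7, 75.2 to 199 and 58.7 to 128, and δ-cell markers (4 genes), mostly *Sst*, to 1176 to 2515, 4942 to 12262 and 4864 to 13953. PP-cell markers (2 genes) summed to 513 to 1107, 3674 to 12980 and 4984 to 14238, and stellate markers (5 genes) to 0 to 0.496, 0.563 to 15.8 and 0 to 0.241. Duct markers (5 genes) summed to 367 to 928, 637 to 921 and 590 to 1188, and of these *Spp1* rose in both mutant groups, by 1.76 and 2.14 (limma adjusted p = 0.0327 and 0.0149), and *Krt19* in the euglycemic group by 2.29 (limma adjusted p = 0.0149). Of the immune markers, *Ptprc* and *Cd3e* stayed below 1 FPKM in every library, whereas the mean of *C1qa* was 36.4 FPKM in WT, 106 in the diabetic and 74.8 in the euglycemic group. *Cd79a*, a B-cell marker of the same list, had means of 12.5, 0.456 and 0.457 FPKM in that order and fell in both mutant groups, with log2 differences from WT of -3.12 and -3.16 (limma adjusted p = 0.000735 and 0.000626). The part of these cells in the values of the insulin and amylin genes was not tested. In sorted bulk cells, fewer cells of a type and less RNA per cell cannot be told apart.

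*Ins1* had the highest FPKM of all genes in 8 of the 11 libraries, *Ins2* in 2 and *Iapp* in 1. This order depends on the lengths of the gene models. Over all libraries the mean level was 68826 FPKM for *Ins1*, 48893 for *Ins2* and 40631 for *Iapp*. The next genes by mean level were *Gcg* at 7263, *Sst* at 7199, *Chga* at 7159, *Ppy* at 4601, *Cpe* at 3077, *Scg2* at 2141 and *mt-Co3* at 1840 FPKM. *Ins1* was above *Iapp* in 10 of 11 libraries and above *Ins2* in 9 of 11. *Ins2* was above *Iapp* in 6 of 11, so the order of the last pair was not fixed. The lowest of the 3 genes exceeded the fourth gene of its library by 1.62- to 8.22-fold.

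*Ins1* was 71701, 97248 and 101797 FPKM in the 3 WT libraries. It was 53562, 85195, 55011 and 61613 in diabetic replicates 1 to 4, and 47726, 52788, 53830 and 76615 in euglycemic replicates 1 to 4. The WT libraries were the highest on average, but diabetic replicate 2 and euglycemic replicate 4 lay above the lowest WT library, so no pair of groups was separated. The WT mean was 90249 ± 16223 FPKM (SD, n = 3), against 63845 ± 14658 in the diabetic and 57740 ± 12863 in the euglycemic group (SD, n = 4 each). On the log2(FPKM + 1) scale the difference from WT was -0.51 (SE 0.322; limma adjusted p = 0.585) in diabetic and -0.65 (SE 0.322; limma adjusted p = 0.393) in euglycemic libraries. Diabetic minus euglycemic was 0.14 (95% interval -0.50 to 0.79; limma adjusted p = 0.812). These intervals reach from a small rise to a fall of more than 1 log2 unit against WT (-1.20 to 0.19 in diabetic and -1.35 to 0.04 in euglycemic libraries), so a fall of *Ins1* was not shown and a large one lies within the intervals.

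**Figure D1:**
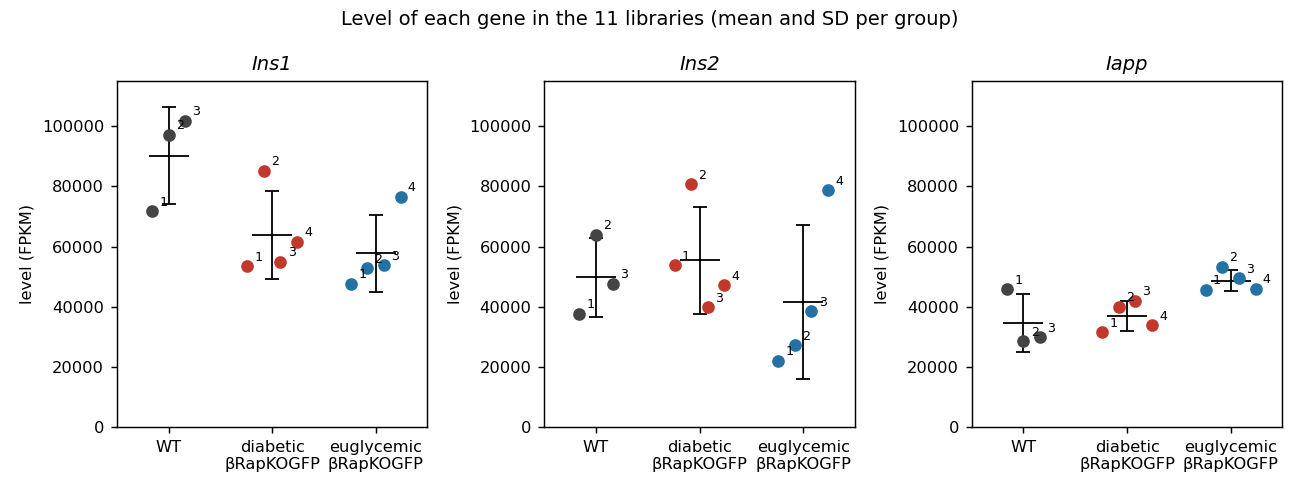
Level of each gene (vertical axis, FPKM) in the libraries of the 3 groups (horizontal axis). Points are libraries with their replicate number, and the bar and whiskers are the group's mean and SD. *Ins1* is highest on average in WT (90249 FPKM), *Ins2* varies most in euglycemic libraries (22121 to 78674), and all 4 euglycemic *Iapp* values lie above all 4 diabetic ones.

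*Ins2* varied more than *Ins1* between libraries of a group. It was 37819, 63931 and 47696 FPKM in WT, and 53841, 80670, 40001 and 47196 in diabetic replicates 1 to 4. In euglycemic replicates 1 to 4 it was 22121, 27309, 38563 and 78674. Replicate 4 was thus 2.04-fold above the next library of its group, and the 3 groups overlapped. Its coefficient of variation was 26.5%, 32.0% and 61.5% in the WT, diabetic and euglycemic groups, against 18.0%, 23.0% and 22.3% for *Ins1*. The log2 difference from WT was 0.14 (SE 0.437; limma adjusted p = 0.937) in diabetic and -0.40 (SE 0.437; limma adjusted p = 0.702) in euglycemic libraries. Diabetic minus euglycemic was 0.54 (SE 0.404; limma adjusted p = 0.457). Without euglycemic replicate 4, which also had the highest acinar marker sum and the lowest inferred depth, the last difference was 0.91 (SE 0.335; limma adjusted p = 0.148), and without euglycemic replicate 1 it was 0.30 (limma adjusted p = 0.729). Euglycemic minus WT was -0.77 and -0.16 without the same libraries, so the size of the *Ins2* differences rests on single libraries.

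*Iapp* varied least of the 3 genes in both mutant groups, with a coefficient of variation of 13.2% in diabetic and 7.34% in euglycemic libraries, but not in WT, where it was 27.6%. It was 45864, 28608 and 29885 FPKM in WT, and 31671, 40006, 42051 and 34018 in diabetic replicates 1 to 4. In euglycemic replicates 1 to 4 it was 45738, 53380, 49626 and 46090, a range of 1.17-fold. Every euglycemic library was above every diabetic one, and WT replicate 1 was at the level of the euglycemic libraries while the other two WT libraries were the lowest of all. Among all genes tested, 7.42% were separated in this way, with every diabetic library below every euglycemic one. The log2 difference of diabetic minus euglycemic was -0.41 (SE 0.268; limma adjusted p = 0.398). Against WT it was 0.11 (SE 0.289; limma adjusted p = 0.920) in diabetic and 0.52 (SE 0.289; limma adjusted p = 0.443) in euglycemic libraries. With libraries scaled to the genes other than these 3, diabetic minus euglycemic was -0.17. Against WT it was then 0.13 in diabetic and 0.29 in euglycemic libraries.

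A gene was called at a Benjamini-Hochberg adjusted p of at most 0.05 over all genes tested with a change of at least 1.5-fold. With limma, 0 of the 3 genes were called in any of the 3 comparisons, and 0 had an unadjusted p below 0.05 in these fits. Over all 66 fits per gene, alternatives included, the unadjusted p was below 0.05 in 6 for *Ins1*, 2 for *Ins2* and 3 for *Iapp*. Of all genes tested, 0.969% were called in diabetic against WT, 0.551% in euglycemic against WT and 0.00889%, which is 1 gene, in diabetic against euglycemic libraries. The split of higher and lower calls was 53 to 56 in diabetic and 40 to 22 in euglycemic against WT, but 36 to 89 in the latter when libraries were scaled to the genes other than these 3, and 49 to 28 in the former in TPM. Leaving out WT replicate 1 raised the count from 62 to 532 in euglycemic against WT and from 1 to 380 in diabetic against euglycemic libraries, and lowered it from 109 to 34 in diabetic against WT. None of the 3 genes was called without that library or under any of the other 20 alternatives tried. The lowest adjusted p reached was 0.125 for *Ins1*, 0.0870 for *Ins2* and 0.128 for *Iapp*.

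As a share of the summed FPKM of its library, the 3 genes together held 36.7, 47.7 and 45.3% in WT. They held 38.5, 51.2, 36.4 and 35.9% in diabetic and 29.0, 32.0, 33.1 and 47.3% in euglycemic replicates 1 to 4. Of the 4 euglycemic libraries, 3 were below every other library, and the fourth was among the highest. The WT mean was 43.2 ± 5.81% (SD, n = 3), against 40.5 ± 7.24% in the diabetic and 35.4 ± 8.18% in the euglycemic group (SD, n = 4 each). Because these shares are so large, a change in any of the 3 genes shifts the scale of all others.

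The share was tested gene by gene on the log2 scale, with an exact permutation test over libraries, two-sided. The smallest p this design allows is 0.0286. The *Iapp* share was 10.8, 7.19 and 7.55% in WT and 11.5, 12.8, 11.6 and 10.8% in euglycemic replicates 1 to 4. The groups were separated only barely, since WT replicate 1 and euglycemic replicate 4 were equal to 3 significant digits. The exact test gave p = 0.0286, and 0.257 when adjusted over the 9 share comparisons. Among all genes tested, 5.18% had shares separated in this direction. The log2 difference of the *Iapp* share was 0.19 in diabetic against WT (exact permutation p = 0.343, and 0.080 to 0.37 with each library left out) and -0.29 in diabetic against euglycemic libraries (exact permutation p = 0.0571). The WT mean of the *Ins1* share was 22.4 ± 4.75% (SD, n = 3), against 16.5 ± 3.13% in the diabetic and 13.8 ± 2.83% in the euglycemic group (SD, n = 4 each). Exact permutation tests of *Ins1* gave p = 0.143 for diabetic and p = 0.0857 for euglycemic against WT. For *Ins2* the exact p-values were 0.514 and 0.429 in the same order. In diabetic against euglycemic libraries they were 0.2 for *Ins1* and 0.171 for *Ins2*. With each library left out of that comparison, the lowest exact permutation p was 0.0286 for *Ins1*, *Ins2* and *Iapp* alike. The highest was 0.457, 0.371 and 0.114 in that order.

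**Figure D2:**
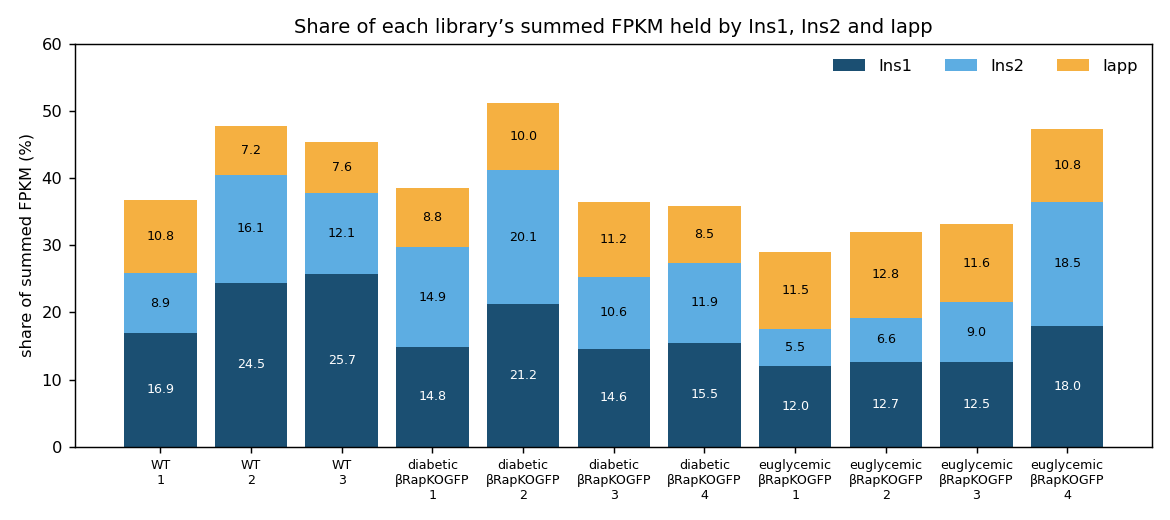
Share of each library's summed FPKM in percent (vertical axis) held by *Ins1*, *Ins2* and *Iapp* in each of the 11 libraries (horizontal axis, group and replicate). Stacked bars start at 0 and numbers are the share of each gene; the total runs from 29.0% in euglycemic replicate 1 to 51.2% in diabetic replicate 2.

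Ratios between the 3 genes within a library do not depend on the scale of that library. The ratio of *Ins1* to *Ins2* was 1.90, 1.52 and 2.13 in WT and 0.995, 1.06, 1.38 and 1.31 in diabetic replicates 1 to 4. All 4 diabetic ratios were below all 3 WT ratios. In euglycemic replicates 1 to 4 it was 2.16, 1.93, 1.40 and 0.974, so this group covered the whole range of the other two. On the log2 scale the WT mean was 0.87 ± 0.248 (SD, n = 3), against 0.23 ± 0.228 in the diabetic and 0.63 ± 0.517 in the euglycemic group (SD, n = 4 each). The diabetic ratio was 0.639 times the WT ratio (difference -0.65, SE 0.183; exact permutation test, two-sided, p = 0.0286, the smallest that 3 against 4 libraries allow). Adjusted over the 9 ratio comparisons the p was 0.257. Of all genes tested, 2.87% had a ratio to *Ins2* that was separated in this direction. Put as a share, *Ins1* made up 64.6 ± 3.95% (SD, n = 3) of the insulin FPKM in WT and 53.9 ± 3.92% (SD, n = 4) in diabetic libraries. Euglycemic minus WT was -0.25 (SE 0.295; exact permutation p = 0.543) and diabetic minus euglycemic was -0.40 (SE 0.282; exact permutation p = 0.257). Without euglycemic replicate 4 the last difference was -0.62 (exact permutation p = 0.0286), and without replicate 1 or 2 it was -0.24 or -0.29 (exact permutation p = 0.543 for both).

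The ratio of *Iapp* to *Ins1* was 0.640, 0.294 and 0.294 in WT, where replicate 1 stood apart. It was 0.591, 0.470, 0.764 and 0.552 in diabetic and 0.958, 1.01, 0.922 and 0.602 in euglycemic replicates 1 to 4. The euglycemic mean was 2.25-fold that of WT (log2 difference 1.17, SE 0.412; exact permutation p = 0.0857). The diabetic mean was 1.54-fold that of WT (0.62, SE 0.402; exact permutation p = 0.2) and 0.683 times the euglycemic one (-0.55, SE 0.226; exact permutation p = 0.0571). Without WT replicate 1 the differences from WT were 1.54 in euglycemic and 0.99 in diabetic libraries (exact permutation p = 0.0667 for both, the smallest that 2 against 4 libraries allow). None of these p-values was below 0.05, although each test on all libraries could have reached 0.0286. Adjusted over the 9 comparisons the tests on all libraries gave 0.257, 0.331 and 0.257.

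The ratio of *Iapp* to *Ins2* spanned 4.62-fold over the 11 libraries. It was 1.21, 0.447 and 0.627 in WT and 0.588, 0.496, 1.05 and 0.721 in the diabetic group. It was 2.07, 1.95, 1.29 and 0.586 in euglycemic replicates 1 to 4. The first 3 euglycemic libraries had the highest ratios, and the fourth was among the lowest. Exact permutation tests gave p = 0.943 for diabetic against WT, p = 0.229 for euglycemic against WT and p = 0.143 for diabetic against euglycemic libraries.

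**Figure D3:**
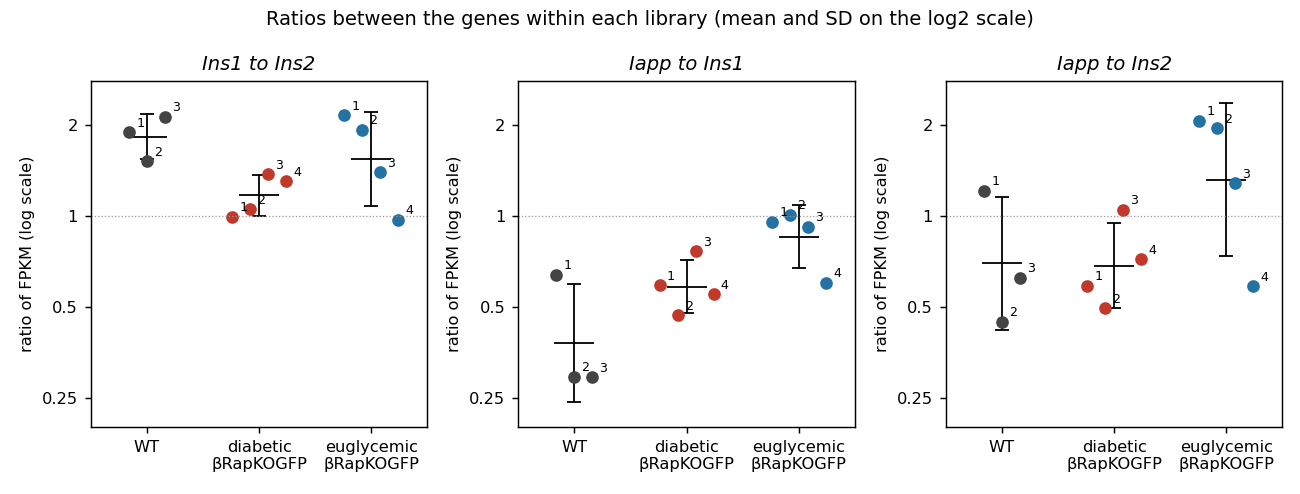
Ratio of FPKM between 2 genes of the same library (vertical axis, log scale) in the 3 groups (horizontal axis). Points are libraries with their replicate number, and the bar and whiskers are the mean and SD on the log2 scale; the 4 diabetic *Ins1* to *Ins2* ratios (0.995 to 1.38) lie below the 3 WT ratios (1.52 to 2.13).

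The libraries also differed in how long and short transcripts were represented. A length score was taken for each library from 5589 other genes with a mean FPKM of at least 5, as the median log2 deviation of long genes (transcripts of 3632 bases or more) minus that of short genes (1534 bases or less). It was -0.51, 0.35 and 0.41 in WT replicates 1 to 3, 0.07 to 0.69 in diabetic and -0.49 to -0.31 in euglycemic libraries. The 5 libraries below 0 were the 4 euglycemic ones and WT replicate 1, and they held the 5 highest *Iapp* values, 45738 to 53380 FPKM against 28608 to 42051 in the other 6. Since every diabetic library was above 0 and every euglycemic one below, score and group cannot be told apart in that comparison. Among libraries below 0, *Iapp* was 45864 FPKM in the 1 WT library, within the euglycemic range of 45738 to 53380. Among libraries above 0, it was 28608 and 29885 in 2 WT libraries and 31671 to 42051 in the diabetic ones.

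With the length score as a covariate, a fit chosen after the data were seen, *Iapp* differed by 0.037 between diabetic and euglycemic libraries (limma adjusted p = 0.991) in place of -0.41. In euglycemic against WT the *Iapp* difference became 0.23 (limma adjusted p = 0.831) in place of 0.52. The log2 difference of the *Ins1* to *Ins2* ratio between diabetic and WT libraries was -0.58 with the length score in the fit and -0.65 without it, and between diabetic and euglycemic libraries -0.20 and -0.40. In diabetic against euglycemic libraries, that of *Iapp* to *Ins1* was 0.11 with the score and -0.55 without it, and that of *Iapp* to *Ins2* was -0.089 and -0.95. With the GC score the 3 ratios moved the other way in diabetic against euglycemic libraries, to -0.55 for *Ins1* to *Ins2*, -0.86 for *Iapp* to *Ins1* and -1.41 for *Iapp* to *Ins2*. In euglycemic against WT, *Iapp* to *Ins2* was 0.36 with the length score and 0.92 without it, and *Iapp* to *Ins1* was 0.74 and 1.17. Among libraries above 0 the *Ins1* to *Ins2* ratio was 1.52 and 2.13 in WT and 0.995 to 1.38 in diabetic libraries. A GC score, built in the same way from genes above 55.1% and below 45.6% GC, was 0.33 in euglycemic replicate 4 and between -0.16 and 0.18 in the other 10. The first transcript has 48.2% GC in *Ins1*, 57.1% in *Ins2* and 40.5% in *Iapp*. With the GC score in the fit, the log2 difference of *Ins2* between diabetic and euglycemic libraries was 0.94 (limma adjusted p = 0.0870) in place of 0.54, and the count of genes called in that comparison rose from 1 to 471. The part of length and GC representation in these levels was not tested.

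**Figure D4:**
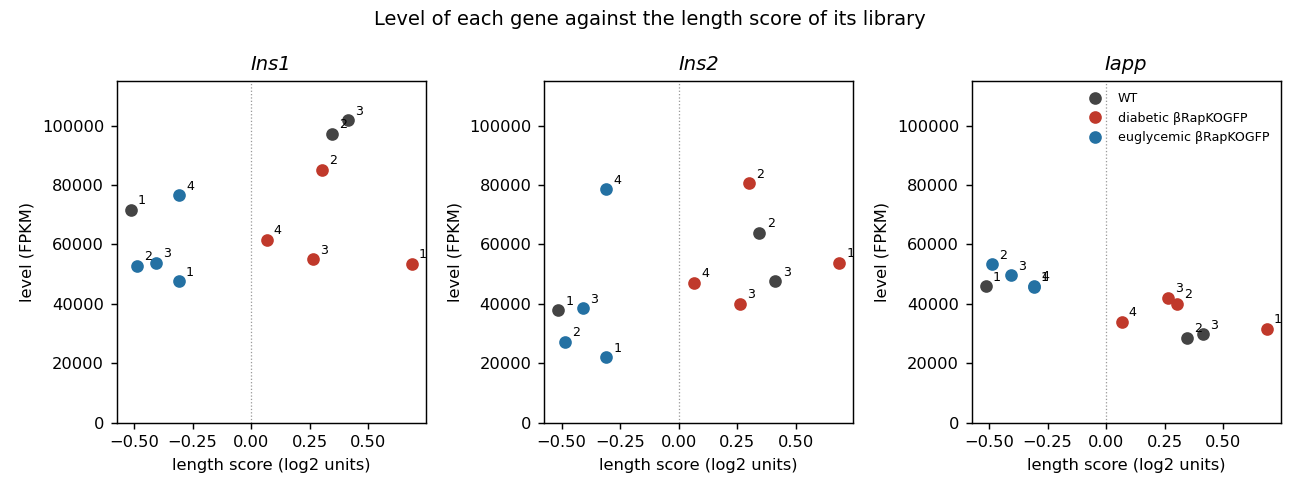
Level of each gene in FPKM (vertical axis) against the length score of its library in log2 units (horizontal axis), with points coloured by group and marked with the replicate number. The 5 libraries with a score below 0 have *Iapp* values of 45738 to 53380 FPKM and the other 6 have 28608 to 42051; *Ins1* and *Ins2* do not divide in that way.

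Genes with a similar pattern across the 11 libraries were listed for each member among 3551 genes with a mean FPKM of at least 10, by Pearson's r of log2(FPKM + 1), as a description. For *Ins1* they were *Srebf1* (r = 0.868), *Spock2* (0.789), *Esyt1* (0.774), *Ctdp1* (0.769) and *Wwp2* (0.765), whose transcripts have 3713 to 5238 bases. For *Ins2* they were *Slc7a5* (r = 0.901), *Fbxo38* (0.860), *Mast3* (0.840), *Map7d1* (0.828) and *Lrfn3* (0.825), with 2886 to 5305 bases. For *Iapp* they included *Chchd10* (r = 0.979), *Gm10275* (0.971), *Atp6v0e* (0.970) and *Cd63* (0.967), with 635 to 2812 bases. These lists of 5 shared 0 genes.

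After each group's mean was taken off, the genes nearest to *Ins1* were *Lrfn3* (r = 0.921), *Tbc1d10a* (0.894), *Gm20427* (0.892), *Gm9844* (0.875) and *Rnf126* (0.866). Those nearest to *Ins2* were *Mars* (r = 0.923), *Gm9844* (0.917), *Slc7a5* (0.894), *Pgrmc2* (0.882) and *Gm20427* (0.868). Those nearest to *Iapp* were *Cd63-ps* (r = 0.972), *Cd63* (0.969), *Chchd10* (0.963), *Cebpzos* (0.959) and *Yif1a* (0.949). *Ins1* and *Ins2* then shared 2 of 5 genes, and *Iapp* shared 0 with either. Between the members themselves r was 0.680 over all libraries and 0.860 with group means taken off for *Ins1* with *Ins2*. It was -0.564 and -0.294 for *Ins1* with *Iapp* and -0.466 and -0.290 for *Ins2* with *Iapp*. The order of libraries was the same for *Ins1* and *Ins2* in the euglycemic group but not in WT or the diabetic group. The points share library, depth and the scale set by the 3 genes.

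Of 17 genes of prohormone conversion and the granule, 1 rose and 1 fell in diabetic against WT, beside 0.471% and 0.498% of all genes tested, and 7 had an unadjusted p below 0.05, a level that 11.9% of all genes reached. *Slc30a8* encodes the transporter that loads zinc into the granule, where it binds insulin hexamers. It was between 642 and 712 FPKM in WT, between 166 and 251 in diabetic and between 231 and 339 in euglycemic libraries, so the mutant ranges lay wholly below WT. It fell by 1.78 on the log2 scale (SE 0.221; limma adjusted p = 0.00270) in diabetic and by 1.31 (SE 0.221; limma adjusted p = 0.0195) in euglycemic libraries. *Vgf*, a granin-related secreted precursor, rose by 1.27 (SE 0.269; limma adjusted p = 0.0449) in diabetic libraries, from 3.90 ± 1.61 (SD, n = 3) to 10.5 ± 1.83 FPKM (SD, n = 4).

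Some genes that missed the threshold had groups that did not overlap, as did 6.67% of all genes tested with the diabetic group above WT, 6.88% with it below and 5.91% with the euglycemic group above WT. *Scg2*, a granin, ran from 1075 to 1399 FPKM in WT, from 1939 to 3240 in the diabetic and from 1730 to 2850 in the euglycemic group (limma adjusted p = 0.0792 and 0.143 against WT). *Chga*, the main granin of the granule, ran from 8039 to 11545 FPKM in WT and from 4667 to 6254 in the diabetic group (limma adjusted p = 0.246). In the euglycemic group it overlapped WT, at 4534 to 8718 FPKM (limma adjusted p = 0.419). *Ero1lb*, an oxidase that helps proinsulin to form disulfide bonds and that was named after its values were seen, ran from 598 to 725 FPKM in WT and from 354 to 454 in the diabetic group (limma adjusted p = 0.111). In the euglycemic group it ran from 353 to 521 FPKM (limma adjusted p = 0.220).

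In euglycemic against WT, 0 of the 17 rose and 1 fell, beside 0.356% and 0.196% of all genes tested. The convertases that cut proinsulin and pro-amylin did not pass the test. *Pcsk1* had a WT mean of 152 ± 8.39 FPKM (SD, n = 3), against 138 ± 34.6 in the diabetic and 149.6 ± 56.6 in the euglycemic group (SD, n = 4 each). *Pcsk2* was 393 ± 18.5, 465 ± 86.5 and 476 ± 92.2 FPKM in the same order. *Cpe*, which trims the basic residues left after cutting, was 3086 ± 817, 2886 ± 512 and 3262 ± 824 FPKM. *Pam*, which amidates amylin, was 32.4 ± 8.48, 70.7 ± 16.6 and 53.8 ± 13.4 FPKM, with a log2 difference of 1.11 (SE 0.268; limma adjusted p = 0.0792) in diabetic against WT. The median log2 difference of the 17 genes was -0.08 in diabetic and -0.07 in euglycemic against WT, beside 0.01 and -0.01 over all genes tested.

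**Figure D5:**
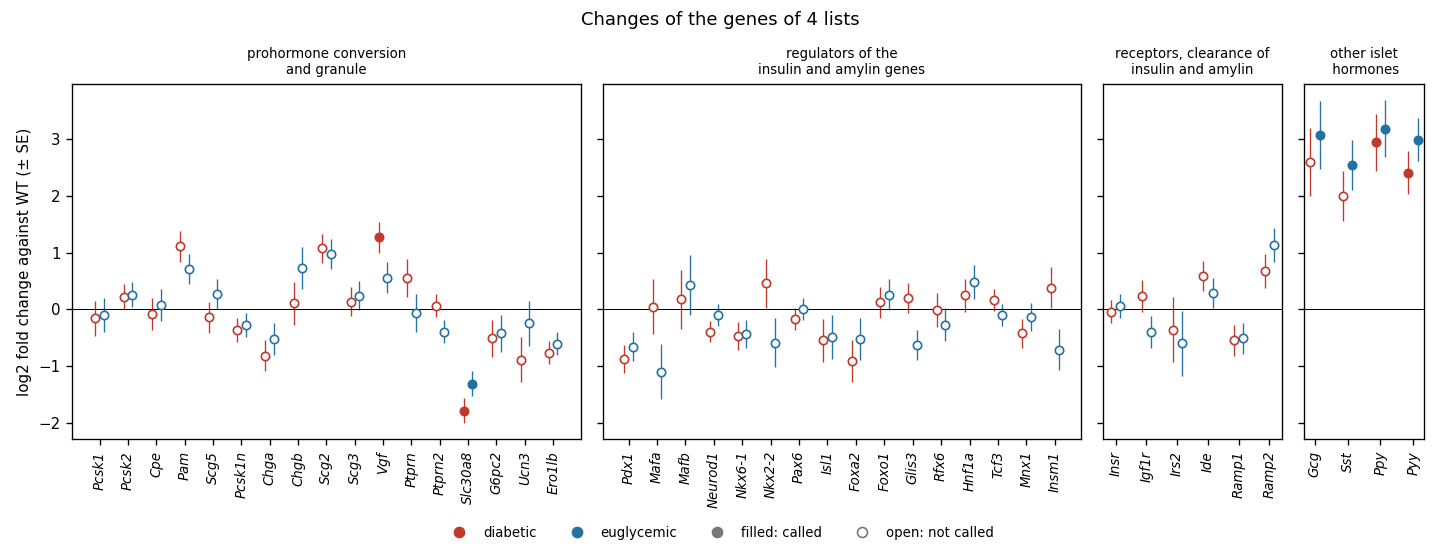
Log2 fold change against WT with its standard error (vertical axis) for the tested genes of 4 lists (horizontal axis), in diabetic (red) and euglycemic (blue) libraries. Filled points were called by limma; *Slc30a8* fell in both groups, *Vgf* rose in diabetic libraries, and the other called genes are islet hormones, with *Ppy* and *Pyy* called in both groups.

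Of 16 regulators of the insulin and amylin genes, 0 were called by limma in any of the 3 comparisons. At an unadjusted p below 0.05 there were 2 in diabetic against WT, 3 in euglycemic against WT and 4 in diabetic against euglycemic libraries, where 11.9%, 13.9% and 20.6% of all genes reached that level, so these counts are near the background. The median log2 difference of the 16 was 0.02, -0.35 and -0.10 in the same order, beside 0.01, -0.01 and 0.01 over all genes tested. Above 0 were 8, 4 and 6 of the 16. *Pdx1* had a WT mean of 90.7 ± 12.3 FPKM (SD, n = 3), against 49.6 ± 11.7 in the diabetic and 58.6 ± 17.2 in the euglycemic group (SD, n = 4 each), with adjusted p of 0.152 and 0.275 against WT by limma. *Mafa* was 11.9, 53.5 and 62.2 FPKM in WT. It ran from 24.9 to 45.3 in the diabetic and from 8.29 to 27.1 in the euglycemic group. WT replicate 1 was thus within the euglycemic range for *Mafa*, as it was for *Iapp*. *Neurod1* was 129 ± 19.9, 97.4 ± 10.5 and 119 ± 16.8 FPKM, and *Nkx6-1* was 52.1 ± 7.24, 37.3 ± 5.25 and 39.6 ± 12.7 FPKM, in the order WT, diabetic and euglycemic.

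Of 9 receptors and clearance genes of insulin and amylin, 6 were tested and 0 were called by limma, with 2, 1 and 1 at an unadjusted p below 0.05 in the 3 comparisons, beside the shares of all genes just given. *Insr*, the insulin receptor, ran from 1.43 to 2.06 FPKM in WT, from 1.19 to 2.51 in the diabetic and from 1.58 to 2.57 in the euglycemic group. *Ide*, which degrades insulin and amylin, was 5.21 ± 0.828, 8.50 ± 2.49 and 6.76 ± 2.1 FPKM. *Calcr*, the core of the amylin receptor, was listed at 0 in 10 of 11 libraries. *Ramp2*, an accessory protein of that receptor family, was 1.64 ± 0.805, 3.14 ± 0.789 and 4.92 ± 2.16 FPKM, with adjusted p of 0.402 and 0.140 against WT by limma.

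Of 5 other islet hormones, *Ghrl* was too low to be tested. *Ppy* rose by 2.94 (SE 0.504; limma adjusted p = 0.0177) in diabetic and by 3.18 (limma adjusted p = 0.0149) in euglycemic libraries on the log2 scale. *Pyy* rose by 2.41 (SE 0.378; limma adjusted p = 0.0103) and 2.98 (limma adjusted p = 0.00347). *Gcg* and *Sst* rose in euglycemic libraries, by 3.07 and 2.55, and missed the threshold in diabetic ones, at adjusted p of 0.0658 and 0.0504 by limma. *Rbp4*, another δ-cell marker, rose with *Sst* in euglycemic libraries, by 2.12 (SE 0.374; limma adjusted p = 0.0248), and the part of δ-cells in the *Sst* level was not tested. Of the tested hormones, 2 of 4 were called higher in diabetic and 4 of 4 in euglycemic libraries, beside 0.471% and 0.356% of all genes tested. *Gcg* ran from 734 to 22921 FPKM over the 11 libraries, and even the highest value was below the *Iapp* value of every library.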

How the data were processed

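Poly-A RNA of FACS-sorted GFP+ islet cells was sequenced in paired ends (WT n = 3, diabetic n = 4, euglycemic n = 4). The FPKM values were deposited by the authors as 1 table, after filtering, mapping to mm10 and quantification; their methods name Tophat and Cufflinks, and the submitters' processing notes name HISAT2 2.0.4 and StringTie 1.3.0, so which tool made the table is not settled. Columns headed KI were read as the insulin-treated libraries, the samples left once WT and KO were matched. A fold change here is on the log2(FPKM + 1) scale.

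Of 34745 entries, 34267 matched a symbol and 478 kept their ID; of a repeated symbol, the entry with the highest mean was kept, leaving 34728. limma 3.58.1 in R 4.3.3 (lmFit, eBayes with trend) was fitted to all 11 libraries over the 11251 genes with at least 1 FPKM in at least 3 libraries, with Benjamini-Hochberg adjustment over all of them. Ratios and shares were compared with exact permutation tests in Python 3.11.15. The fits were tested on simulated data. Depth was inferred from 1-fragment steps in genes with 1 exon, 1 transcript and 500 bases or more.

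The 3 genes and the lists were chosen with earlier results of these data known. Named were the members, every called list gene and up to 4 more per list, the 10 genes of highest mean, the 5 most similar genes per member, and *Rptor*. *Ero1lb* and the markers of other cell types were named after their values were seen; 1 of the genes most similar to *Iapp* is not reported here. Alternatives were the low-value filter, pseudocount, scaling, groups in the fit, trend, replicate block and each library left out; the length and GC scores were added after seeing the data.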

Additional observations from a re-analysis of the deposited data

Results flagged for a closer look

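In groups of 4, a library was marked where its gap to the nearest other was larger, relative to the group's range, than Dixon's 95% critical value. This was done for 120 groups of values, and 9 were marked, where chance marks about 1 in 20. The *Ins1* share of library FPKM was marked in diabetic replicate 2, at 21.2% against at most 15.5% in the other diabetic libraries, and in euglycemic replicate 4, at 18.0% against at most 12.7%. As a percentage of the FPKM of all other genes, *Ins1* was marked in the same libraries, at 43.5% and 34.2%. *Pcsk2* was lowest in diabetic replicate 2 at 337 FPKM, and *Pyy* was highest in diabetic replicate 4 at 1664 FPKM. *Neurod1* was lowest in euglycemic replicate 2 at 94.2 FPKM. In euglycemic replicate 4, *Ptprn* was highest at 87.3 FPKM and *Scg5* lowest at 597 FPKM. These values are given without an explanation.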

How the results depend on the processing

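Outside the counts of called genes, 308 of 339 alternative values kept their direction and their side of the threshold. These 308 passed it neither in the main analysis nor in the alternative. The main tests that passed were the *Ins1* to *Ins2* ratio of diabetic against WT and the *Iapp* share of euglycemic against WT. Exact permutation gave p = 0.0286 for both. They account for all 16 values that lost the threshold, under every alternative tried. With a library left out no p below 0.0667 was possible for them, so those alternatives could not decide. The log2 fold changes that turned direction all ended near 0, although that of *Iapp* in diabetic against euglycemic libraries started at -0.41. For *Ins2* in diabetic against WT they were -0.016 with the replicate block and -0.0083 with the length score. With that score, *Ins1* was -0.077 and *Iapp* 0.037 in diabetic against euglycemic libraries. Leaving out each library gave *Ins2* -0.061 to 0.33 and *Iapp* -0.013 to 0.33 in diabetic against WT, and *Ins1* -0.0039 to 0.29 in diabetic against euglycemic libraries. The *Iapp* to *Ins2* log2 ratio in diabetic against WT ran from -0.35 to 0.37, and was 0.05, 0.13 and 0.37 without diabetic replicates 1 and 2 and WT replicate 1. The cause was not tested.

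Numbers did not pair the libraries: same-numbered libraries had a mean correlation of deviations of -0.132 over 10 pairs. In the block the *Ins1* to *Ins2* log2 ratio of diabetic against WT was -0.70 (exact sign-flip p = 0.25, the smallest 3 pairs allow). Called genes under the block were 45, 20 and 0 in diabetic against WT, euglycemic against WT and diabetic against euglycemic libraries, beside 109, 62 and 1. In the same order they were 22, 13 and 0 without the filter. In diabetic against euglycemic libraries they were 0 with a pseudocount of 0.1, TPM, the median of ratios and scaling to the other genes, and 6 with only those 2 groups. In euglycemic against WT they were 125 with scaling to the other genes and 18 with only those 2 groups. The length score gave 10 and 0 in the last 2 comparisons, and the GC score 222 in diabetic against WT and 471 in diabetic against euglycemic libraries. Leaving out each library gave 23 to 209, 10 to 532 and 0 to 380. Scaling to the other genes moved the median log2 fold change of all genes to -0.19 in euglycemic against WT and 0.19 in diabetic against euglycemic libraries, and TPM to 0.14 in the last.

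Leaving out each library, the *Ins1* to *Ins2* log2 ratio of diabetic against WT ran from -0.78 to -0.54, where no p below 0.0667 is possible, and that of diabetic against euglycemic from -0.62 to -0.24. For *Iapp* to *Ins1* it ran from 0.43 to 0.99 in diabetic against WT, 0.98 to 1.54 in euglycemic against WT and -0.72 to -0.44 in diabetic against euglycemic libraries. For *Iapp* to *Ins2* it ran from 0.60 to 1.32 and -1.34 to -0.73 in the last 2, and for *Ins1* to *Ins2* from -0.41 to -0.027 in euglycemic against WT. The *Iapp* share of euglycemic against WT ran from 0.36 to 0.66 on the log2 scale, and was 0.29 (exact permutation p = 0.114) with the members left out of the total. In diabetic against WT the shares ran from -0.62 to -0.32 for *Ins1* and 0.0019 to 0.43 for *Ins2*. In diabetic against euglycemic libraries they ran from 0.14 to 0.40 for *Ins1*, 0.44 to 1.02 for *Ins2* and -0.36 to -0.23 for *Iapp*. Counting error at the inferred depth is small for these genes.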
